A study of Mus musculus with 12 samples.

Results

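Neurod2, Neurog2, Bhlhe22 and Nhlh1 are neurogenic transcription factors of the basic helix-loop-helix (bHLH) family, and their loci were followed in peaks of 5-methylcytosine (5mC) and 5-hydroxymethylcytosine (5hmC) from cells of the mouse cortex on day E14.5 of gestation. Every peak whose nearest gene in the authors' annotation was 1 of the 4 was taken, which gave 14 of 102563 peaks, 2 of the 55085 of 5mC and 12 of the 47478 of 5hmC. Cells came from embryos that carried 1 copy each of Btg2-RFP and Tubb3-GFP, the RFP marking cells committed to neurogenesis and the GFP neurons. Proliferating progenitors (PP) lacked both reporters, differentiating progenitors (DP) had RFP without GFP, and neurons had GFP. The labels call the first 2 neuronal stem cells (Btg2-/Tubb3-) and neurogenic progenitors (Btg2+/Tubb3-). All 3 groups were of 1 genotype and age, with no treatment named, and were defined by the reporters alone, so that RFP carried over into GFP-positive cells did not exclude them from the neurons. The series lists 12 samples, an immunoprecipitate and an input of each cell type for each mark. The study states 3 biological replicates of each cell type, which these labels do not separate.

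In (h)MeDIP, an antibody against the modified base pulls down sheared DNA. PP, DP and neurons were barcoded first and pulled down as a single mix. The level of a peak is therefore a normalized number of reads, given by the authors as 1 mean log2 value per cell type, and not the fraction of modified cytosines. The tables hold neither counts nor values of single replicates, so the depth behind a level is unknown, no error can be attached to any value below, and no difference was tested here. Differences between cell types are given on the log2 scale as the later minus the earlier cell type, after the median difference of all peaks of the mark was subtracted. These medians were -0.0040, -0.18 and -0.17 for 5mC and -0.0035, -0.023 and -0.081 for 5hmC, for PP to DP, DP to neurons, and PP to neurons. A peak or gene was counted as higher or lower when the difference reached 1.5-fold, which is 0.58 on the log2 scale.

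bHLH factors of this class bind DNA as heterodimers with ubiquitous E-proteins at E-boxes, short motifs of the letters CANNTG. In the embryonic cortex, Neurog2 acts in progenitors to start neurogenesis and to activate Eomes and further bHLH genes, Neurod2 acts in postmitotic excitatory neurons, Bhlhe22 (also Bhlhb5) is a repressor that takes part in the identity of cortical areas and projection neurons, and Nhlh1 is a factor of newborn neurons. Id proteins sequester the E-proteins, and Hes and Hey factors, acting after Notch signaling, repress proneural genes. 5mC at regulatory DNA is commonly found with silencing, while 5hmC, made from 5mC by Tet enzymes, is found at enhancers and in the bodies of active genes.

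The 250 bases before the start of a gene were available from RefSeq (GRCm38.p6, the assembly called mm10) for 3 of the 4 genes, Neurod2, Neurog2 and Nhlh1. Neurod2 and Nhlh1 are shown since both had peaks upstream of these windows, which lie at chr11:98329646-98329895 and chr1:172057597-172057846, respectively, both on the minus strand. Sequences run from 5′ to 3′, and capitals mark CG dinucleotides, the main sites of methylation.
Neurod2: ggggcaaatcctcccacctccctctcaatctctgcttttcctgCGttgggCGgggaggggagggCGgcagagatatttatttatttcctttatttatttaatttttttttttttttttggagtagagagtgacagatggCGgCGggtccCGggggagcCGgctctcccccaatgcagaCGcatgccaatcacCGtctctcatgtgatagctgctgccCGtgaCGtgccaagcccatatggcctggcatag
Nhlh1: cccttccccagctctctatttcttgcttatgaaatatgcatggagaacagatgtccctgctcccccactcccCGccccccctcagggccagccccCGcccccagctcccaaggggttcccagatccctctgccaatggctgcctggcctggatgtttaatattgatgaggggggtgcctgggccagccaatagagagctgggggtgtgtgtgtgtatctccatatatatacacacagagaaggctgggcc
The window of Neurod2 held 11 CG, and 64.4% of all 32851 promoters held fewer, while the window of Nhlh1 held 2 CG, with 18.8% of promoters holding fewer. The median was 6. The window of Neurog2, chr3:127632886-127633135 on the plus strand, held 8 CG. It precedes 1 annotated start but lies inside the gene as RefSeq records it, which begins at 127632733, and is not shown. E-boxes were searched on both strands as CANNTG, of which CAGATG and CAGCTG are special cases counted within it. Neurod2 held 3, namely CAGATG at 118 bases before the start, then CATGTG at 51 bases, and CATATG at 17 bases. A single E-box of Nhlh1, CAGATG, was at 203 bases before the start, while the letters CANNTG were not in the window of Neurog2, which need not be the promoter of its outermost start. Of all promoters, 66.2% held CANNTG, 14.4% CAGATG or its reverse complement, and 13.0% CAGCTG, which none of the 3 windows held. No peak of either mark overlapped any of the 3 windows.

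The study also lists an amplicon for bisulfite sequencing, by position and not by gene, that lies inside the 5mC peak of Neurod2. It reports bisulfite and oxidative bisulfite sequencing of selected loci that lost 5mC and gained 5hmC, with relative levels as in its (h)MeDIP. It describes 5hmC there as higher at both steps, unlike the 5hmC peak of Neurod2 described below. Its text does not say which amplicons these were, and no value of this amplicon was read here. The primers of the amplicon, shown since they delimit a stretch of the 5mC peak, are written against converted DNA, in which unmethylated C reads as T. They contain no CG.
Neurod2 forward primer: aattagggggaaattggaatagag
Neurod2 reverse primer: cctctaaaaaacctaaaaaaaaccaa

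Expression of the 4 genes, which the authors copied into the tables from an earlier RNA-seq study of the same cell types, differed most between PP and DP for Nhlh1. Its values were 328.1 in PP, 5329.1 in DP and 5049.3 in neurons, 16.2-fold higher in DP than in PP and nearly level thereafter. Neurod2 was at 1454.7, 14644.5 and 44141.2, 10.1-fold and then 3.01-fold higher. Bhlhe22 followed the same order, at 186.8, 1253.9 and 12731, with its larger step (10.1-fold, against 6.68-fold before) between DP and neurons. Neurog2 alone of the 4 was lowest in neurons, at 15976.3, 32860.8 and 2440.5, that is, 2.06-fold higher in DP than in PP and then 13.5-fold lower. The tables do not name the unit of these values. The study plots expression in FPKM, but whether these columns hold that unit is not stated, and they reach 119166 for Dcx. Values are therefore compared between cell types and not between genes.

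**Figure D1:**
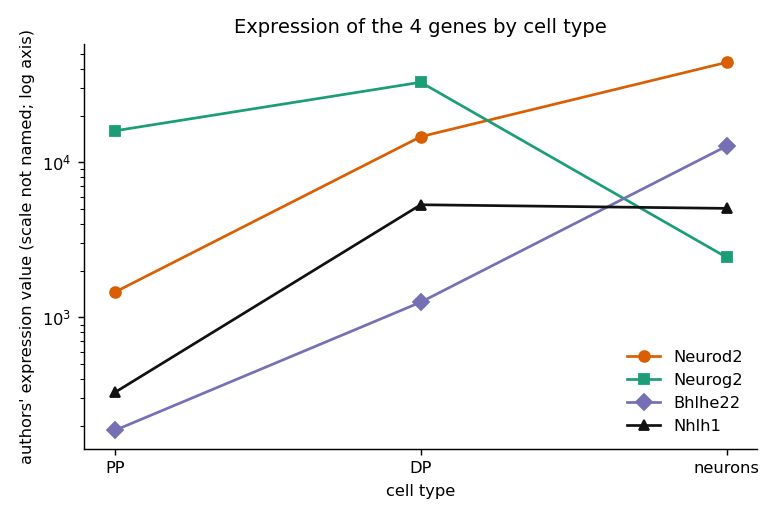
Expression of Neurod2, Neurog2, Bhlhe22 and Nhlh1 in PP, DP and neurons, 1 authors' mean per point, on a log axis whose unit the tables do not name. All 4 lines climb from PP to DP, after which Neurod2 and Bhlhe22 continue upward, Nhlh1 stays nearly level, and Neurog2 drops below its value in PP.

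All 4 genes were thus at least 1.5-fold higher in DP than in PP, as were 13.7% of the 16293 genes with a peak, but the study picked these factors for that rise and nothing can be read from it. It picked them among bHLH factors with motifs enriched at loci that lost 5mC or gained 5hmC. Its set also held Neurod1 and Neurog1, which had no peak of either mark and are counted among the related genes below. On the log2(value + 1) scale, the increases were 4.02 for Nhlh1, 3.33 for Neurod2, 2.74 for Bhlhe22 and 1.04 for Neurog2. A larger increase was seen for 0.104%, 0.620%, 1.34% and 7.56% of genes, respectively. From DP to neurons, Neurod2 and Bhlhe22 were higher (2 of 4, against 26.2% of all genes) and Neurog2 was lower (1 of 4, against 26.1%), while Nhlh1 differed by -0.078. From PP to neurons, 3 were higher (29.8% of all genes) and Neurog2 was lower (31.2% of all genes). As cells were sorted and profiled in bulk, fewer cells with a transcript or a modified base and less of it per cell cannot be told apart here or in the levels that follow.

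Peaks were unevenly spread over the 4 genes. Nhlh1 had 9 peaks of 5hmC and 1 of 5mC, Neurod2 had 1 of each, and Neurog2 and Bhlhe22 had 1 of 5hmC and none of 5mC. Of the 12848 genes with a peak of 5hmC, 1197 (9.32%) had at least as many as Nhlh1. The peaks of the 4 genes were 124 to 182 bp wide for 5mC and 115 to 183 bp for 5hmC, and the medians over all peaks were 144 and 164 bp.

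For 5mC, only the peak of Neurod2 reached 1.5-fold. It was lower at each step, which made 1 of 2 peaks lower in DP than in PP, in neurons than in DP, and in neurons than in PP, against 5.44%, 9.36% and 10.2% of all 5mC peaks. None of the 2 was higher at any step, against 4.6%, 5.12% and 5% of all. For 5hmC, none of the 12 peaks was lower or higher in DP than in PP, against 4.68% and 11.2% of all 5hmC peaks, and the differences ran from -0.41 to 0.52 with a median of -0.053, where that of all peaks is 0 by construction. From DP to neurons, 4 of 12 were lower and 1 was higher, against 7.07% and 16.5% of all. From PP to neurons, 3 were lower and 2 higher, against 7.71% and 22.1% of all, with a median of -0.31. Of these peaks, 9 belong to Nhlh1 and lie close together, so that the 12 are not independent of each other.

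**Figure D2:**
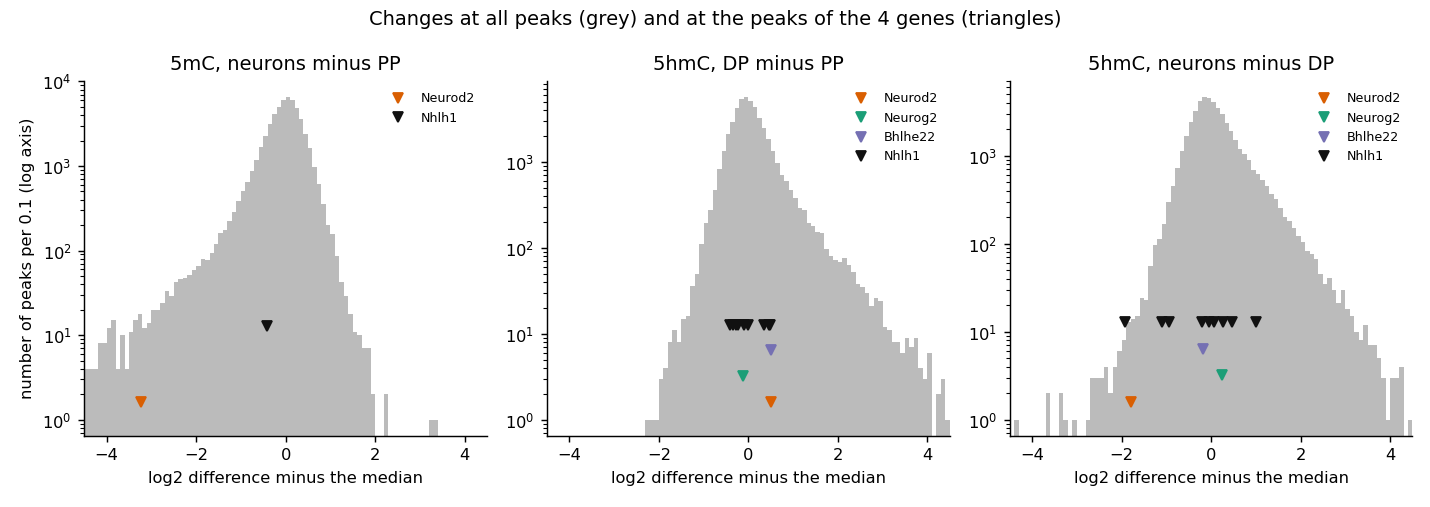
Number of peaks (log axis) by the log2 difference between cell types, after the median of all peaks was subtracted, for neurons minus PP in 5mC, and for DP minus PP and neurons minus DP in 5hmC. Grey bars are all peaks between -4.5 and 4.5, and triangles, whose height has no meaning, are the peaks of Neurod2, Neurog2, Bhlhe22 and Nhlh1. The 5mC peak of Neurod2 sits at -3.24 in the left tail. The 5hmC peaks are all within 0.52 of 0 from PP to DP and reach from -1.93 to 0.996 from DP to neurons.

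Neurod2 and Nhlh1 alone had a 5mC peak, and Neurod2 was the gene at which 5mC in neurons was farther below PP. Its 5mC peak, chr11:98333211-98333393 and 3654 bp upstream of the transcription start site (TSS), stood at 5.91, 4.92 and 2.50 in PP, DP and neurons. These log2 levels correspond to 60.3, 30.3 and 5.67 normalized reads, so that the value in neurons rests on few reads. The level was lower at both steps, with differences of -0.99 (1.98-fold) in DP against PP and -2.24 (4.73-fold) in neurons against DP. Over both steps the difference was -3.24, or 9.44-fold, and 0.234% of all 5mC peaks had a more negative difference. With a pseudocount of 8 normalized reads added to each level, it was -2.18.

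The 5hmC peak of Neurod2, chr11:98333271-98333454, covered 122 bp of the same element. Its levels of 4.57, 5.08 and 3.28 were highest in DP, where 5mC was already lower than in PP, and lowest in neurons. Between PP and DP the marks differed in sign, -0.99 for 5mC and 0.51 for 5hmC, the latter 1.43-fold and short of the 1.5-fold minimum, with 13.3% of all 5hmC peaks higher. Between DP and neurons both were lower, with a difference of -1.78 (3.44-fold) for 5hmC, from 33.9 to 9.70 normalized reads. Only 0.120% of all 5hmC peaks had a more negative difference at this step, and 0.412% of all 5mC peaks had one at the overlapping 5mC peak. Expression of Neurod2 was highest in neurons, in which both marks were lowest.

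**Figure D3:**
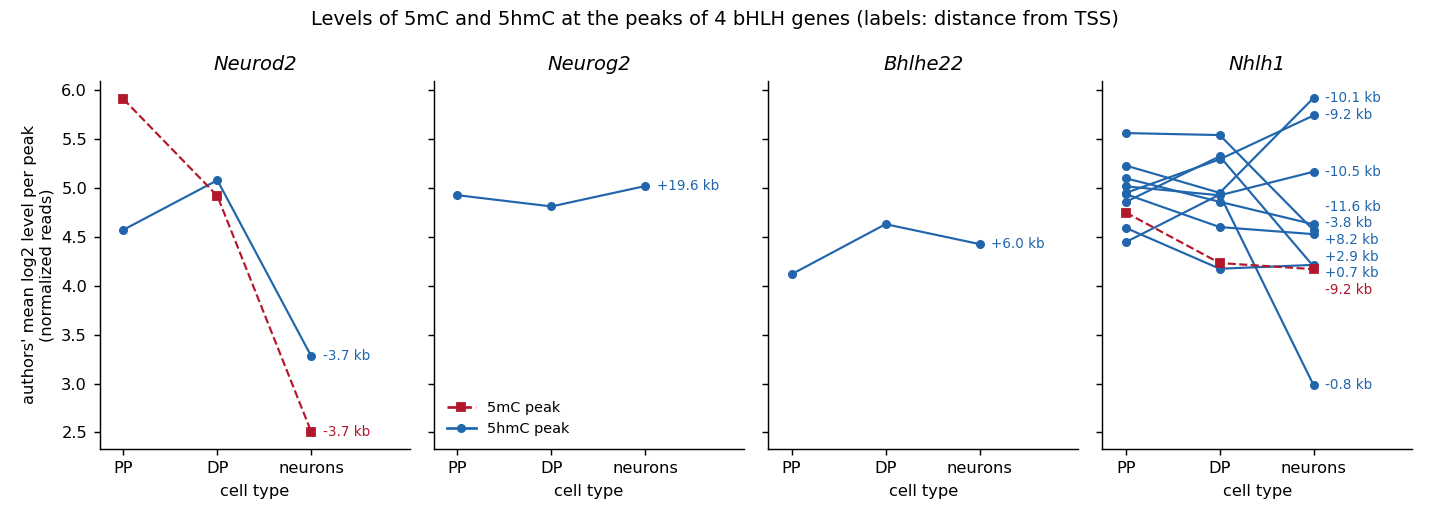
Authors' mean log2 level of each peak of Neurod2, Neurog2, Bhlhe22 and Nhlh1 in PP, DP and neurons, with 5mC as red squares and dashed lines and 5hmC as blue circles and solid lines. Labels give the distance from the TSS (negative upstream), and for Nhlh1 they are spaced apart in the order of the levels in neurons. Both marks of Neurod2 end far below their levels in DP, the single peaks of Neurog2 and Bhlhe22 stay within narrow ranges, and the 9 lines of 5hmC at Nhlh1 cross, spreading from 2.98 to 5.93 in neurons.

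Nhlh1 had 5hmC peaks that were lower and others that were higher in neurons, a few kilobases apart. The peak next to the TSS that was outside the gene, chr1:172058336-172058476 and 833 bp upstream, stood at 4.45 in PP, 4.94 in DP and 2.98 in neurons. It was 1.41-fold higher in DP than in PP, and then 3.81-fold lower in neurons (-1.93), from 30.6 to 7.89 normalized reads. Of all 5hmC peaks, 0.0842% had a more negative difference from DP to neurons, and 0.310% from PP to neurons, where the difference was -1.38. The order of the cell types at this peak was that of the 5hmC peak of Neurod2, highest in DP and lowest in neurons.

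The peak nearest to the TSS of Nhlh1, chr1:172056835-172057005, was inside the gene, 653 bp from the TSS, and showed the same order, at 4.86, 5.33 and 4.20. The differences were 0.47 in DP against PP and -1.11 in neurons against DP. Between PP and neurons it was -0.58, or 1.49-fold, just short of the minimum. Together with the 5hmC peak of Neurod2, these made 3 of 12 peaks that were highest in DP and lowest in neurons, while 17.3% of all 5hmC peaks had that order. A further peak, 3847 bp upstream, differed by -0.017 in DP against PP and by -0.95 in neurons against DP.

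Farther upstream, at chr1:172066701-172066873 and 9214 bp from the TSS, 5hmC of Nhlh1 was higher at each step, at 4.95, 5.30 and 5.74. The difference between PP and neurons was 0.88, or 1.83-fold, with 16.1% of all 5hmC peaks higher. This peak overlapped the only 5mC peak of the gene, chr1:172066730-172066854, by 124 bp. There 5mC stood at 4.75, 4.23 and 4.17, with differences of -0.51 in DP (1.43-fold, under the minimum) and -0.41 in neurons, both against PP. Of all 5mC peaks, 7.39% had a more negative difference from PP to DP. At this element the marks thus differed in sign over PP to neurons, -0.41 for 5mC and 0.88 for 5hmC, whereas at the element of Neurod2 both were negative, -3.24 and -1.21. The neighboring 5hmC peak, 10073 bp upstream, was likewise higher in neurons than in DP, by 0.996.

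The remaining 4 peaks of 5hmC at Nhlh1, at 10451 and 11629 bp upstream, 2931 bp inside the gene and 8151 bp downstream of the TSS, differed by -0.39 to 0.23 between PP and neurons, and none reached 1.5-fold at any step. Peaks lower in neurons than in DP by 1.5-fold lay between 3847 bp upstream and 653 bp downstream of the TSS, and the peak that was higher lay at 10073 bp upstream. Over the 9 peaks of the gene, 3 were lower and 1 higher from DP to neurons, against 7.07% and 16.5% of all 5hmC peaks. From PP to neurons, 2 were lower and 2 higher, against 7.71% and 22.1% of all, so that the higher peaks were near the share of all. Expression of Nhlh1 from DP to neurons differed by -0.078.

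**Figure D4:**
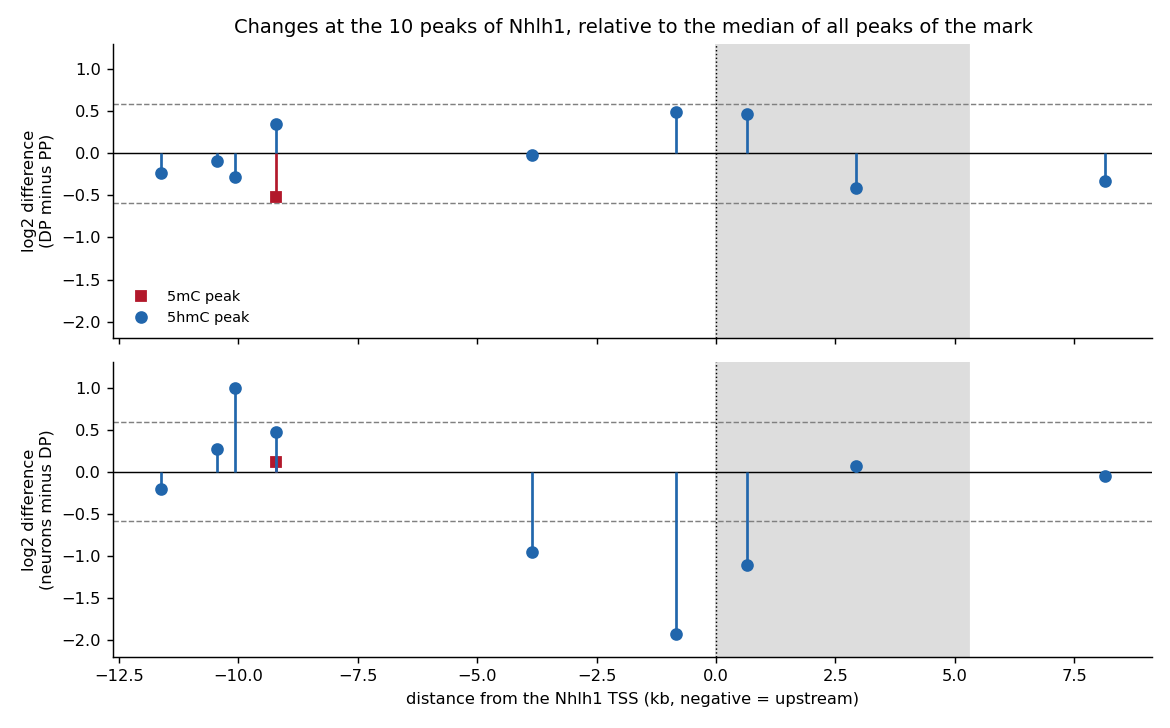
Log2 difference at each of the 10 peaks of Nhlh1, after the median of all peaks of the mark was subtracted, against the distance from its TSS in kb, with DP minus PP above and neurons minus DP below. Red squares are 5mC, blue circles 5hmC, the dotted line is the TSS, the grey area the gene and dashed lines mark 1.5-fold. No peak passes the dashed lines in the upper panel. In the lower panel, 3 peaks around the TSS lie at -0.95, -1.93 and -1.11 while the peak at 10073 bp upstream lies at 0.996.

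Bhlhe22 had a single peak, of 5hmC, at chr3:18060267-18060445, beyond the 3′ end of the gene and 6030 bp downstream of its TSS. The levels were 4.12 in PP, 4.63 in DP and 4.43 in neurons. Here too DP was highest, by 0.52 over PP (1.43-fold), and 13.2% of all 5hmC peaks had a larger increase. In neurons, in which expression of Bhlhe22 was highest, the peak differed by -0.18 from DP and by 0.39 from PP. The increases from PP to DP at the peaks of Bhlhe22 and Neurod2 and at the 2 peaks of Nhlh1 next to its TSS were alike in size, from 0.47 to 0.52. These were the largest among the 12 peaks of 5hmC, picked after their values were seen, and all were under the 1.5-fold minimum. At this step 7 of the 12 peaks were below 0 and 5 above, with a median of -0.053, so the 12 do not share an increase.

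Neurog2 had a single 5hmC peak as well, at chr3:127652703-127652818, 19623 bp downstream of the TSS. Its levels of 4.93, 4.81 and 5.02 were the most even of the 14 peaks, and the differences of -0.11, 0.23 and 0.18 were at most 1.17-fold. Expression of Neurog2 differed by -3.75 on the log2(value + 1) scale over the step at which its peak differed by 0.23.

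The order of the cell types by level, as deposited and not centred, was set against that by expression. None of the 12 peaks of 5hmC ranked PP, DP and neurons as the expression of its gene did, against 21.1% of all peaks, and 2 ranked them the opposite way, against 19.8%. These were the peak of Neurog2 and the peak 2931 bp inside Nhlh1, both with small differences. Of the 12 peaks, 9 belong to Nhlh1, whose expression differed by only -0.078 between DP and neurons. Its order of DP and neurons is thus close to a tie, on which the counts at its peaks depend. With that tie reversed, the Nhlh1 peak 9214 bp upstream, higher at each step, would have the order of expression. Of the 2 peaks of 5mC, that of Neurod2 had the opposite order, against 19.3% of all peaks, and none had the order of expression, against 16.6%. DP had the highest 5hmC level in 4 of 12 peaks and neurons the lowest in 6 of 12, against 25.7% and 43.7% of all peaks.

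With regard to position, all 14 peaks were within 20 kb of a TSS, with the peak of Neurog2 close to that limit, against 49.5% of all 5mC and 41.9% of all 5hmC peaks. Both peaks of 5mC were upstream of their gene. Of the 12 peaks of 5hmC, 7 were upstream, 2 inside and 3 downstream, against 42.1%, 36.2% and 21.4% of all. None overlapped a TSS, which 0.467% of all 5mC and 0.213% of all 5hmC peaks did. The genes are compact, with 2904 bp for Neurog2, 3190 bp for Bhlhe22, 4231 bp for Neurod2 and 5305 bp for Nhlh1 in RefSeq, and a peak inside any of them is possible only in that space.

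Within 50 kb of the 4 genes, 11 peaks of 5mC and 6 of 5hmC were assigned to other genes. Around Bhlhe22 there were none. The 3 peaks of 5mC around Neurog2 differed by -0.11 to 0.23 from PP to neurons. The 4 around Neurod2 differed by -0.52 to 0.30, against -3.24 at the peak of Neurod2 itself. Close to Nhlh1, a 5mC peak assigned to Copa, which encodes a coatomer subunit, stood at 4.77, 4.71 and 3.22, with a difference of -1.31 from DP to neurons, and it was the only 1 of the 11 that reached 1.5-fold from PP to neurons. Among the 6 peaks of 5hmC, 2 of Ppp1r1b near Neurod2 were lower in neurons than in PP, at -0.98 and -0.77, and 1 of Vangl2, a gene of planar cell polarity, near Nhlh1 was higher by 1.06. These neighbors were named after their values were seen.

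Among 15 related proneural and neuronal bHLH genes, 9 had a peak and hence an expression value. From PP to DP, 7 of the 9 were higher and none lower, against 13.7% and 17% of all genes, although 2 of the 7, Bhlhe23 and Olig3, were at 8 or below in every cell type. From DP to neurons, 2 were higher and 6 lower, against 26.2% and 26.1% of all genes. Those that were higher, Neurod6 (1025.4, 14943.6 and 45981.4) and Nhlh2 (23.8, 1038.6 and 2209.6), are paralogs of Neurod2 and Nhlh1. Neurod4, at 99.7, 1564.6 and 32, shared with Neurog2 a maximum in DP and a minimum in neurons.

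Of the E-proteins with which these factors pair, Tcf3, Tcf4 and Tcf12, none differed by 1.5-fold from PP to DP, and Tcf3 was lower in neurons, at 17929.2, 18261.5 and 7196.3. Of the 7 antagonists, 2 were higher and 4 lower in DP than in PP, against 13.7% and 17% of all genes. In neurons against DP, 1 was higher and 6 were lower, against 26.2% and 26.1% of all genes. Hes1 went from 4991.9 to 2619.9 and 29.5, and Hes5 from 11221.7 to 7568.1 and 89.3. Id2 was the exception, at 1390.1, 2190 and 10807.8. All 10 genes listed as known targets of neurogenic bHLH factors were higher in DP than in PP, against 13.7% of all genes. Dll1, Rnd2 and Tbr1 are among them, as is Btg2, whose reporter was used to sort DP. So are Eomes and Dcx, which also serve as markers below. From DP to neurons 3 of the 10 were higher (Rnd2, Dcx and Tbr1) and 7 lower, against 26.2% and 26.1% of all genes.

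In the peaks of the same lists, neurons were compared with PP, for which 22.1% of all 5hmC peaks were higher and 7.71% lower, and 5% of all 5mC peaks were higher and 10.2% lower. The targets had 23 of 43 5hmC peaks (53.5%) higher and none lower, and 10 of 33 5mC peaks (30.3%) lower and 1 higher, with medians of 0.65 and -0.36. The 12 peaks of 5hmC at the 4 factors, with 2 higher and 3 lower, had a median of the other sign, -0.31. Of the 12, 7 were below 0 and 5 above, the latter including the only peaks of Bhlhe22 and Neurog2. Nhlh1 alone holds 9 of the 12, so this median mostly describes 1 locus. For the related bHLH genes the counts were 8 higher (22.9%, near the share of all peaks) and 1 lower of 35 for 5hmC, with a median of -0.058, and 3 higher and 5 lower (18.5%) of 27 for 5mC, with a median of -0.15. The E-proteins had 10 higher and 2 lower of 20 peaks of 5hmC, and none higher and 7 lower of 15 of 5mC, and the antagonists had 12 higher and 1 lower of 36, and none higher and 5 lower of 28. Tcf4 alone holds 15 of the 20 peaks of 5hmC and 10 of the 15 of 5mC at the E-proteins. Id2, the antagonist with higher expression in neurons, holds 16 of the 36 and 17 of the 28 at the antagonists. Peaks of 1 gene share their surroundings, and no difference between lists was tested.

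Genes with the expression pattern most like each factor were ranked by Euclidean distance between the log2(value + 1) values of the 3 cell types, each centred on its own mean, over 11326 genes at 100 or above in some cell type. With only 3 cell types, many genes come close. The nearest to Neurod2 were AC168054.1, A730035I17Rik and Celsr3, at distances of 0.064, 0.080 and 0.15. Bhlhe22 was closest to Ank3, Sntg1 and Cdk5r2, at 0.024, 0.073 and 0.11. Nhlh1 was closest to Cbln2, Cerkl and Wnt5a, at 0.19, 0.21 and 0.26, and Neurog2 to Fam129a, Arhgap11a and Dcn, at 0.14, 0.31 and 0.32.

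The cell types were checked against markers in the expression columns, which come from the earlier RNA and not from the DNA of these samples. Sox2, Pax6, Hes5, Nes and Vim were highest in PP, Btg2 and Eomes in DP, and Tubb3, Dcx and Stmn2 in neurons, with Tubb3 at 3814.4, 25259.3 and 105657. Map2, Aif1 and Gad2 have no peak and so no value. Of other cells, endothelial Pecam1 and Cldn5 were at 4.9 to 78.7, microglial Csf1r at 67.4 to 246.8 and Pdgfra of oligodendrocyte precursors at 29.6 to 121.2, and these 4 were highest in PP. Dlx2 of interneurons was at 393.1, 1225.8 and 2227.3, in the same order of cell types as Neurod2 and Bhlhe22. Its part in the levels of the 4 factors was not tested.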

How the data were processed

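The authors aligned 75-bp single reads from DNA sheared to 250 bp to mm10 with BWA 0.7.8-r455, called peaks with SICER 1.1, merged peaks found in all replicates, left out those overlapping repeats, computed TMM-normalized levels with DiffBind, and annotated the nearest TSS with HOMER 4.7. The deposited level columns hold log2 values, averaged by the authors over replicates that the labels do not separate. The deposited expression columns are a score whose scale is not named, and the distance column is a score in bp. Neither counts, depths, nor input signals were in the tables used here. The authors' columns of fold changes with p-values for each pair of cell types, and of expression changes with adjusted p-values, hold their own comparisons and were not used.

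All rows were used without a filter. Members were matched by gene symbol. Levels were subtracted between cell types and centred on the median of all peaks, a pseudocount of 1 was added to expression before log2, and peaks were paired at an overlap of at least 1 bp. The 4 genes, the lists and the rules were chosen with earlier results of these data known. Levels were printed for the peak nearest to the TSS of each gene and mark, for peaks at least 2-fold different between PP and neurons, and for overlapping pairs. Other peaks that are named were chosen after their values were seen. Coordinates are those of the authors' files or, for genes and promoters, of RefSeq. The steps were tested on simulated data. Alternatives were no centring, a 2-fold minimum, peaks within 20 kb or inside the gene, high levels only, pseudocounts of 8 for levels and 50 for expression, other overlaps, and a minimum for the order of cell types. Motifs in peaks were not analysed here, as no genome was used. The software was python 3.11.15 with pandas 2.3.3, numpy 2.4.6 and, for figures, matplotlib 3.10.9.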

Additional observations from a re-analysis of the deposited data

How the results depend on the processing

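Of 78 counts recomputed under the alternatives, 74 stayed within 1.5 times the value given above and 4 did not. Among the 74, the 12 recomputed for peaks inside the gene or within 20 kb could not change, as all 14 peaks lie within that distance. A count of 0 likewise cannot fall at a 2-fold minimum, so the tally is no measure of stability. With a minimum of 2-fold in place of 1.5-fold, the number of 5mC peaks lower in DP than in PP was 0 in place of 1, since the decrease at Neurod2 was 1.98-fold. At that minimum, the number of 5hmC peaks higher in neurons was 0 in place of 1 against DP and 0 in place of 2 against PP, all of them peaks of Nhlh1. Where an order of cell types was counted only at 1.5-fold or more between PP and neurons, 0 in place of 2 peaks of 5hmC had the order opposite to expression. Of 37 differences of single peaks, none changed direction, and 1, that of the Nhlh1 peak 653 bp inside the gene from PP to neurons, reached 1.5-fold without centring, at -0.66. A pseudocount of 8 normalized reads brought the 3 largest decreases from PP to neurons closer to 0, from -3.24 to -2.18 for 5mC at Neurod2, from -1.38 to -0.84 for 5hmC 833 bp upstream of Nhlh1, and from -1.21 to -0.78 for 5hmC at Neurod2. The filter on high levels kept 9 of 14 peaks. Among those it left out were the 5hmC peak 833 bp upstream of Nhlh1 and the only 5mC peak of Nhlh1. With the filter, 3 in place of 4 peaks of 5hmC were lower in neurons than in DP. Both peaks of Neurod2 were kept despite levels of 2.50 for 5mC and 3.28 for 5hmC in neurons. The filter therefore does not bear on how few reads these values in neurons rest on.

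The tables give 1 authors' mean per cell type, which allows no replicate to be left out, and no error or test was computed for any difference. The authors' own p-values in the tables were not used. No paired analysis was possible because the columns carry no replicates. Depth is unknown, and differences at low levels, as in neurons at Neurod2 and at the Nhlh1 peak 833 bp upstream, rest on few reads. Peaks were assigned to the nearest TSS, which need not be the gene an element acts on. The letters of E-boxes in peaks were planned and not run, since no genome was given.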

Other observations

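The closest paralogs of Neurod2 and Nhlh1 had more peaks than most of the 4 factors, and the peaks below were chosen after their values were seen. Neurod6 had 3 peaks of 5mC and 6 of 5hmC, the 5mC peaks at 44.7, 67.7 and 68.9 kb from the TSS. Inside Neurod6, 5hmC stood at 5.71, 5.98 and 6.60 in PP, DP and neurons, higher by 0.97 from PP to neurons. At 34.7 kb downstream, 5hmC differed by -1.94 from PP to neurons, at 5.30, 5.02 and 3.28. A 5mC peak 68.9 kb upstream was lowest in DP, at 4.54, 3.56 and 4.22, and overlapped a 5hmC peak by 132 bp. In this pair both marks differed by less than 1.5-fold from PP to neurons, by -0.15 and -0.31.

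Nhlh2 had 5 peaks of 5mC and 6 of 5hmC, with 2 pairs that overlapped only in part, by 43 bp and 13 bp. In the pair 34.7 kb upstream, 5mC differed by -0.89 and 5hmC by 1.12 between PP and neurons. In the pair 14.7 kb upstream, 5mC differed by -0.59 and 5hmC by 1.18, with most of the increase of 5hmC (0.73) between PP and DP. Both pairs had the signs seen at the overlapping pair of Nhlh1, at -0.41 and 0.88, where the marks share 124 bp. With so short an overlap, the marks of Nhlh2 lie largely on different DNA. From PP to neurons, the pair of Neurod6 had the signs seen at the pair of Neurod2, negative for both marks, at far smaller size. The single steps went other ways. From DP to neurons 5mC differed by 0.84 at Neurod6 and by -2.24 at Neurod2. From PP to DP 5hmC differed by -0.13 and 0.51, respectively.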
